A study of Gallus gallus with 7 samples.

Results

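Chromosome Z held 1114 of the 25469 genomic regions in which sox10 and tfap2B occupancy was measured in sorted chicken vagal neural crest cells. Of the 25469 regions, 13888 lay on placed chromosomes and the others on unplaced sequences. The 1114 are all the regions that the deposited table places on chromosome Z of the galGal5 build. No read level entered this choice among the listed regions. How the listed regions were called is not given, so reads of these libraries may have entered the list itself. Each region was placed by the distance of its midpoint to the nearest transcription start site (TSS) of the annotated genes, as within 1 kb, from 1 to 20 kb, or over 20 kb away. The levels of the 1233 genes of chromosome Z are given beside them, with the 141 genes of chromosome W for contrast.

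In birds the female carries a Z and a W chromosome and the male a pair of Z chromosomes, and the difference in Z gene dose between the sexes is known to be only partly compensated. Sox10 is an HMG-box transcription factor of neural crest, glia and pigment cells, and tfap2B belongs to the AP-2 factors that act in neural crest specification. Vagal neural crest leaves the hindbrain-level neural tube and forms most of the enteric nervous system.

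All libraries came from wild-type Gallus gallus embryos. For chromatin, cells were isolated at Hamburger and Hamilton stage 18 (HH18) by the E2:citrine reporter, electroporated at HH8. The factor was electroporated with an Avi tag, beside the biotin ligase BirA, which lets streptavidin beads pull down the tagged protein with no antibody. Which constructs the embryos behind the inputs carried is not stated. There were 2 sox10 pull-downs, 2 tfap2B pull-downs and 2 inputs. The only RNA library came from HH10 cells that carried the NC2:citrine reporter, electroporated at HH4. The factors were thus supplied as tagged constructs, and no pull-down without a tagged factor was analysed here. The labels give neither the sex of the embryos nor the embryos behind each replicate, so the p-values cover the spread among these libraries alone, which may be technical. The sorted cell type was not checked against marker genes, because the gene table lists Ensembl IDs that the files do not pair with symbols.

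Reads in regions ranged from 1366132 to 3498728 in the 4 pull-downs and from 7989029 to 13921317 in the 2 inputs. Levels are scaled reads, the deposited whole reads multiplied by 1 constant per library. Values of a pair of libraries are given as replicate 1 and replicate 2. No region was listed below 1 read in any library, so a value of 1 read can stand for 0 or 1.

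Regions on chromosome Z lay farther from TSSs than autosomal ones. The median Z region lay 6.01 kb from a TSS, against 0.984 kb for the 12771 regions on placed autosomes. Within 1 kb of a TSS lay 378 Z regions, a share of 33.9% (95% Wilson interval 31.2 to 36.8%), against 50.2% of autosomal regions. Among the 28 chromosomes with at least 100 regions, Z had the lowest share within 1 kb. A further 403 Z regions (36.2%) lay 1 to 20 kb away and 333 (29.9%) over 20 kb away, against 31.8% and 17.97% of autosomal regions. The excess at 1 to 20 kb came from 1 end of the chromosome, beyond 70 Mb, described further on. There the share at 1 to 20 kb was 61.3%, against 25.9% in the rest of Z, below the autosomal share. Over 20 kb the shares were 22.3% beyond 70 Mb and 33.0% in the rest. Inside introns lay 298 Z regions, a share of 26.8% against 11.7% for autosomes. This intronic excess came from the same end, beyond 70 Mb, where 65.0% of the regions were intronic, against 11.1% in the rest of Z. Of all Z regions, 394 were intergenic and 44 touched an exon away from a TSS. The nearest TSS belonged to 727 different Z genes, and 1 gene had up to 7 regions, so neighbouring regions are not independent of each other.

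Chromosome Z regions had lower median levels than autosomal regions in all 6 libraries. In the sox10 pull-downs the median Z region had 99.7 and 88.9 scaled reads, against 125 and 124 for autosomal regions. In the tfap2B pull-downs the medians were 92.2 and 89.5 on Z and 146 and 123 on autosomes. The inputs had 84.1 and 175 on Z and 108 and 209 on autosomes. The ratio of Z to autosomal medians, which does not depend on the scaling of a library, was therefore 0.798 and 0.717 with sox10, 0.632 and 0.729 with tfap2B and 0.781 and 0.836 in the inputs. The ratio of means was 0.794 and 0.699 with sox10, 0.699 and 0.761 with tfap2B and 1.09 and 0.849 in the inputs, so by the mean input replicate 1 lay above 1. Of the 28 chromosomes with at least 100 regions, Z had the lowest median in each of the 4 pull-downs. Chromosome 25 was next lowest, at 104.5 and 92.4 scaled reads for sox10 and 102.5 and 99.96 for tfap2B. Without the regions beyond 70 Mb described further on, the Z medians were 103 and 95.9 with sox10 and 113 and 95.8 with tfap2B. Z then lay above chromosome 25 in sox10 replicate 2 and tfap2B replicate 1, and below it in the other pull-downs. In both inputs Z was at rank 3 from the low end.

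The mean log2 ratio of Z to autosomes was -0.40 ± 0.11 with sox10, -0.56 ± 0.15 with tfap2B and -0.31 ± 0.07 in the inputs (SD, n = 2 each). An exact two-sided permutation test over libraries gave p = 0.667 for sox10 against input (difference -0.10, n = 2 each). The same exact test gave p = 0.333 for tfap2B against input (difference -0.25) and p = 0.667 for sox10 against tfap2B (difference 0.16). With 2 libraries a group the smallest p this test allows is 0.333, so it cannot reach 0.05. Both differences against input turned positive, to 0.39 and 0.35, without the Z regions beyond 70 Mb described further on. No difference between pull-downs and inputs was therefore shown for the chromosome as a whole.

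The ratio differed by distance to a TSS, as the plot of ratios per library shows. Within 1 kb of a TSS the Z regions had 0.915 and 0.811 of the autosomal median with sox10, 0.867 and 0.890 with tfap2B and 0.712 and 0.831 in the inputs. At 1 to 20 kb the ratios were 0.804 and 0.712 with sox10, 0.629 and 0.741 with tfap2B and 1.25 and 1.07 in the inputs. Over 20 kb from a TSS they were 0.610 and 0.526 with sox10, 0.714 and 0.692 with tfap2B and 1.25 and 1.82 in the inputs. All 4 pull-downs thus lay below 1 and both inputs above 1 in each of the classes beyond 1 kb. The log2 difference over 20 kb was -1.41 for sox10 and -1.10 for tfap2B against input, each at the smallest p of the exact permutation test, 0.333. The input ratios above 1 came with the regions beyond 70 Mb, an end stretch chosen after the values were seen. Without it, both inputs lay below 1 in each class. At 1 to 20 kb the ratios were then 0.873 and 0.827 with sox10, 0.758 and 0.759 with tfap2B and 0.559 and 0.620 in the inputs, so the pull-downs lay above the inputs. Over 20 kb they were 0.581 and 0.526 with sox10, 0.679 and 0.667 with tfap2B and 0.942 and 0.949 in the inputs. The log2 difference over 20 kb was then -0.77 for sox10 and -0.49 for tfap2B, and at 1 to 20 kb it turned to 0.53 and 0.37.

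**Figure D1:**
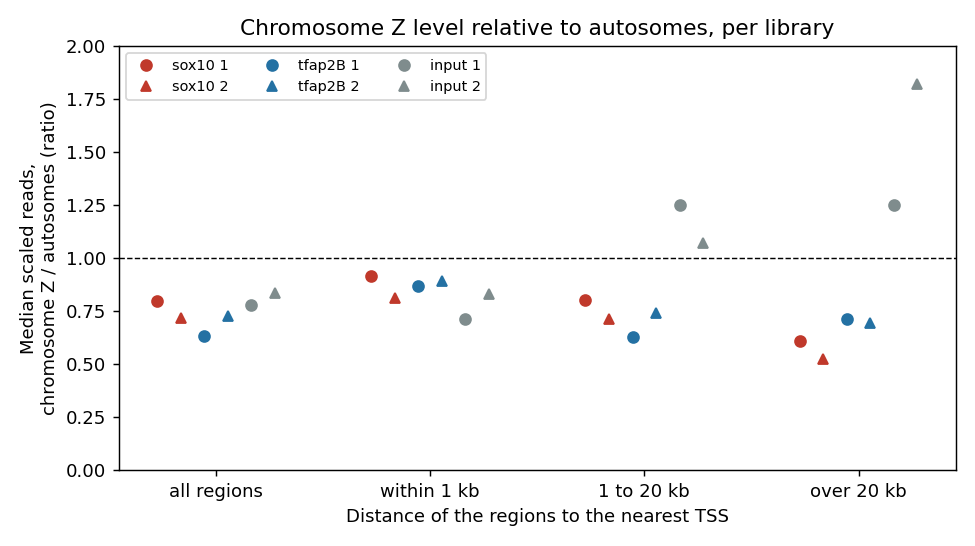
Ratio of the median scaled reads of chromosome Z regions to that of autosomal regions of the same TSS distance class (y axis) for each of the 6 libraries, by distance class (x axis); the dashed line marks a ratio of 1. All points lie below 1 over all regions and within 1 kb, while both inputs lie above 1 in the classes beyond 1 kb, up to 1.82, and the pull-downs stay below; without the regions beyond 70 Mb, which the plot includes, both inputs lie below 1 in these classes too, at 0.559 to 0.949.

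Of the 1114 Z regions 1112 passed the low-read filter and were tested with limma over all 25281 regions that passed. For sox10 against input, 122 Z regions were called higher, 10.97% of those tested, where 18.4% of all regions tested were called higher. Another 236 Z regions (21.2%) were called lower, against 22.3% of all regions. The median log2 difference of Z regions was -0.31, beside -0.40 over all regions. Among autosomal regions 14.5% were called higher and 15.3% lower. The shares over all regions, which take in the unplaced sequences, lay above these. Without the regions beyond 70 Mb, 13.3% of the Z regions tested were called higher and 6.84% lower. Called regions were those at a Benjamini-Hochberg adjusted p under 0.05.

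The Z regions called higher for sox10 had median levels of 173 and 192 scaled reads with sox10, 72.0 and 88.5 with tfap2B and 8.68 and 2.72 in the inputs. The Z regions called lower had 95.5 and 79.6 with sox10, 74.3 and 87.5 with tfap2B and 447 and 346 in the inputs. The sox10 level of the lower regions thus lay near that of the median Z region, and their input level was above the median of Z. Of the 122 higher regions 24 had at most 3 reads in both inputs. EdgeR's quasi-likelihood test, run on the recovered reads, also called 92 of the 122 higher and 122 of the 236 lower regions, at a share of all regions of 10.1% higher and 11.5% lower.

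For tfap2B against input, 88 Z regions were called higher (7.91%), where 10.8% of all regions and 10.4% of autosomal regions were. Without the regions beyond 70 Mb, the higher share on Z was 9.89%. Another 214 Z regions (19.2%) were called lower, against 17.4% of all regions and 8.84% of autosomal regions. The median log2 difference of Z regions was -0.15, beside -0.14 over all regions. The Z regions called higher had medians of 100.2 and 112 scaled reads in tfap2B, against 5.56 and 3.45 in input. Those called lower had 67.6 and 82.3 in tfap2B, against 473 and 350 in input. With only tfap2B and input in the fit, 44 were higher and 158 lower, where 4.87% and 11.3% of all regions were. Of the 88 higher regions 22 had at most 3 reads in both inputs, and of the 44 likewise 22. By edgeR 68 of the 88 and 121 of the 214 were also called, where 7.61% and 9.51% of all regions were called higher and lower. Both comparisons with input share the same 2 input libraries, so the calls for sox10 and tfap2B are not independent.

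The calls depended on single libraries and on the scaling, over all regions as well as on Z, so this dependence is not particular to Z. Without sox10 replicate 1 the counts for sox10 were 34 higher and 27 lower, and without replicate 2 they were 18 and 0. Without input replicate 1 they were 190 and 419, and without input replicate 2 they were 246 and 269. Without either tfap2B library no Z region was called for tfap2B against input. Its counts were 160 and 317 without input replicate 1, 251 and 255 without input replicate 2, 35 and 122 without sox10 replicate 1, and 36 and 134 without sox10 replicate 2. The share of higher calls among all calls on Z was 34.1% for sox10 and 29.1% for tfap2B with the deposited scaling. It was 65.3% and 61.6% with total reads per library, and 42.2% and 39.9% with TMM factors. The median log2 difference over all regions was -0.40 for sox10 and -0.14 for tfap2B with the deposited scaling, 0.35 and 0.65 with total reads, and -0.15 and 0.12 with TMM factors.

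By position, higher calls on Z were more frequent away from TSSs, although pull-down levels were lower there. Within 1 kb the Z medians were 117 and 101 scaled reads with sox10, 158 and 126 with tfap2B and 99.0 and 216 in the inputs. Over 20 kb they were 76.9 and 70.2 with sox10, 53.7 and 56.2 with tfap2B and 45.2 and 25.8 in the inputs. At most 3 reads in both inputs were found at 19 Z regions over 20 kb and 0 within 1 kb. For sox10, 13 of 378 Z regions within 1 kb were called higher (3.44%), 53 of 403 at 1 to 20 kb (13.2%), and 56 of 331 over 20 kb (16.9%). For tfap2B the counts were 13 (3.44%), 34 (8.44%) and 41 (12.4%). Autosomal regions had the same order, with 2.28%, 20.4% and 38.1% called higher for sox10 and 2.51%, 14.5% and 25.2% for tfap2B. Without the regions beyond 70 Mb, the Z shares were 4%, 19.5% and 20.1% for sox10 and 4%, 12.7% and 15.1% for tfap2B. At 1 to 20 kb these lay near the autosomal shares, and over 20 kb below them. Lower calls were most frequent at 1 to 20 kb, with 138 regions (34.2%) for sox10 and 140 (34.7%) for tfap2B. Of these, 127 and 129 lay beyond 70 Mb. In the rest of Z the lower shares were 9.23% within 1 kb, 5.37% at 1 to 20 kb and 5.02% over 20 kb for sox10, and 3.38%, 5.37% and 3.86% for tfap2B. Intronic Z regions held 159 of the 236 lower calls for sox10 and 161 of the 214 for tfap2B, of which 152 and 155 lay beyond 70 Mb. In introns of the rest of Z the lower shares were 8.05% and 6.90%, against 8.14% and 6.07% in autosomal introns. The difference between classes was not tested, since regions are not replicates.

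Most lower calls lay at 1 end of the chromosome. Beyond 70 Mb, a position chosen after the values were seen and therefore given no test, lay 323 Z regions, 27.4 per Mb, against 11.3 per Mb in the rest of Z. Chromosomes 3, 4 and 5, the autosomes nearest to Z in length, had 10.0, 9.88 and 13.5 regions per Mb. Of the 323 regions 210 (65.0%) were intronic and 198 lay 1 to 20 kb from a TSS. Lower than input were 182 (56.3%) for sox10 and likewise 182 for tfap2B. In the rest of Z, 54 of 789 tested regions (6.84%) were lower for sox10 and 32 (4.06%) for tfap2B. Higher calls numbered 17 beyond 70 Mb and 105 in the rest for sox10, and 10 and 78 for tfap2B.

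Between the end stretch and the rest of Z the inputs differed most. Beyond 70 Mb the sox10 medians were 93.7 and 77.2 scaled reads, against 103 and 95.9 in the rest of Z. The tfap2B medians were 67.1 and 79.1 beyond 70 Mb and 113 and 95.8 in the rest. Input medians were 311 and 273 beyond 70 Mb, against 59.1 and 142 in the rest. The ratio of the end stretch to the rest was thus 0.907 and 0.805 with sox10, 0.595 and 0.826 with tfap2B and 5.27 and 1.93 in the inputs. Over 20 kb from a TSS the input ratio reached 9.43 and 19.5, while within 1 kb it was 1.41 and 1.09. Without the regions beyond 70 Mb, the ratio of Z to autosomal medians was 0.827 and 0.774 with sox10, 0.773 and 0.780 with tfap2B and 0.548 and 0.678 in the inputs.

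In windows of 5 Mb the lower calls were most frequent in the last 3 windows. The first window, from 0 to 5 Mb, had 12 of 59 regions lower for sox10 and 5 for tfap2B, and the windows from 5 to 70 Mb had 0 to 9 for sox10 and 0 to 8 for tfap2B. From 65 to 70 Mb, 6 of 70 regions were lower for sox10 and 8 for tfap2B. From 70 to 75 Mb the counts were 44 and 48 of 93 regions, from 75 to 80 Mb 96 and 100 of 154, and from 80 to 85 Mb 42 and 34 of 76. The number of lower calls beyond 70 Mb, 182 for each factor, was 70 for sox10 and 72 for tfap2B with total reads per library. By edgeR it was 101 for sox10 and 108 for tfap2B. It was 19 without sox10 replicate 1 and 0 without sox10 replicate 2 for sox10, and 0 without either tfap2B library for tfap2B. Leaving out an input gave 220 without replicate 1 and 198 without replicate 2 for sox10, and 209 and 198 for tfap2B. Leaving out a pull-down library also cut the lower calls over all regions, so this loss is not particular to the end stretch. The treatment of reads that match several places is unstated in the sources, and its part in the input level was not tested.

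**Figure D2:**
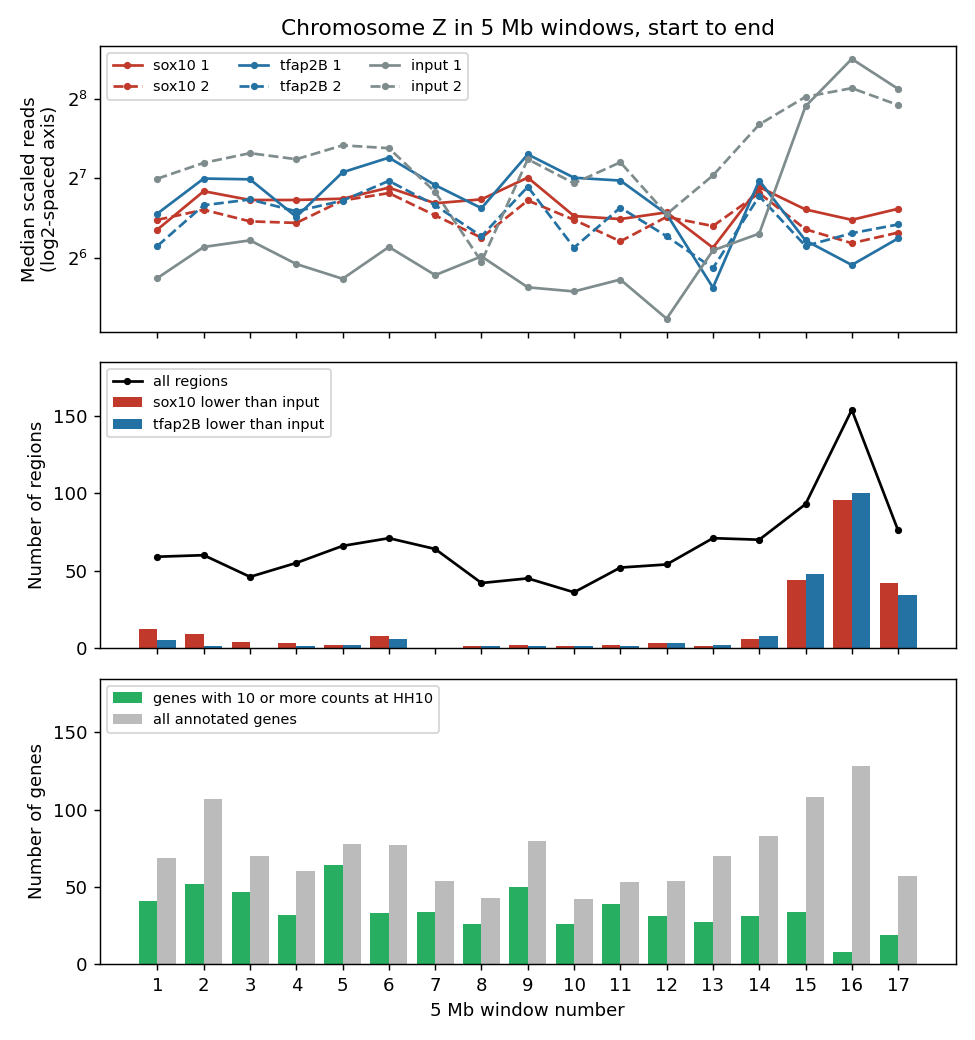
Chromosome Z in 17 consecutive windows of 5 Mb (x axis), with the median scaled reads of the regions in each library on a log2-spaced axis (top), the number of regions and of those lower than input (middle), and the number of genes with at least 10 counts at HH10 beside all annotated genes (bottom). The last 3 windows hold 93, 154 and 76 regions, and the window before the last has 8 genes with at least 10 counts among 128. Input replicate 1 lies above all pull-downs only in these 3 windows, while input replicate 2 does so in most earlier windows too.

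**Figure D3:**
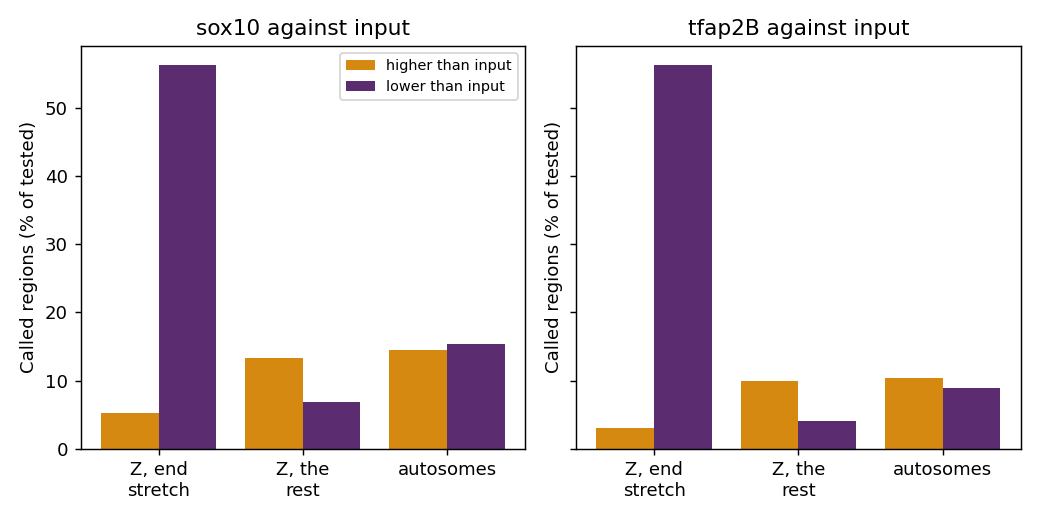
Percentage of tested regions called higher or lower than input by limma (y axis) for sox10 (left) and tfap2B (right), in the end stretch of chromosome Z beyond 70 Mb, in the rest of Z and on autosomes. Lower calls make up 56.3% of the end stretch for each factor, against 6.84% for sox10 and 4.06% for tfap2B in the rest of Z.

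Single regions show the levels behind these calls. The strongest called regions were chosen to have no overlap between groups, so their lack of overlap was fixed by the rule and is no support. The largest sox10 and tfap2B differences by the naming rule were at an intergenic region of chromosome Z, 24821514 to 24822014, which lies 67.3 kb from the nearest TSS. It had 147 and 669 scaled reads with sox10, 268 and 412 with tfap2B and 0.695 and 0.363 in the inputs, which is 1 read in each input. The groups did not overlap, although the sox10 libraries differed from each other more than the tfap2B libraries did. Its log2 differences of 7.69 for sox10 and 7.78 for tfap2B depend on the added pseudocount of 1 and are no bound (limma, adjusted p 0.00280 and 0.00727).

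An intronic region at 40309400 to 40309900, 20.003 kb from a TSS, had 228 and 714 scaled reads with sox10, 307 and 385 with tfap2B and 0.695 and 3.27 in the inputs. All 4 pull-downs lay above both inputs, and the inputs held 1 and 9 reads. This region had the highest mean of the 4 pull-downs among Z regions over 20 kb from a TSS.

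Within 1 kb of a TSS, the highest mean of the pull-downs was at 34407377 to 34407877, 0.812 kb from the start site of a gene with 0 counts at HH10. The region had 443 and 393 scaled reads with sox10, 336 and 431 with tfap2B and 20.8 and 6.89 in the inputs, which is 30 and 19 reads. Its mean was 418 ± 35.6 in sox10 and 384 ± 66.9 in tfap2B, against 13.9 ± 9.86 in input (SD, n = 2 each). The log2 difference was 4.99 for sox10 (SE 0.62, limma adjusted p 0.00281) and 4.86 for tfap2B (SE 0.62, limma adjusted p 0.00727).

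Beyond 70 Mb higher regions were few. An intronic region at 80297880 to 80298380 had 322 and 185 scaled reads with sox10, 182 and 208 with tfap2B and 7.64 and 1.09 in the inputs. Its log2 differences were 5.85 for sox10 and 5.52 for tfap2B (limma adjusted p 0.00409 and 0.00755). Among the strongest for sox10 was also an intergenic region at 62518501 to 62519001, 2.30 kb from a TSS, with 395 and 356 scaled reads with sox10, 229 and 223 with tfap2B and 5.56 and 56.2 in the inputs. For tfap2B a region at 4061358 to 4061858, 0.054 kb from the start site of a gene with 1399 counts at HH10, had 358 and 169 scaled reads in tfap2B, against 0.695 and 58.8 in input. Its limma adjusted p was 0.0477 and the edgeR adjusted p 0.0847, so edgeR did not call it, and limma with only tfap2B and input in the fit did not either (adjusted p 0.0710).

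The strongest lower region for sox10 was intronic, at 74337323 to 74337823 and 2.81 kb from a TSS. It had 61.3 and 21.1 scaled reads with sox10, 30.4 and 43.7 with tfap2B and 1173 and 309 in the inputs. All pull-downs lay below both inputs, and the inputs differed from each other more than the pull-downs did. The log2 difference was -4.02 for sox10 (SE 0.84, limma adjusted p 0.0109) and -4.01 for tfap2B (limma adjusted p 0.0133). An intronic region at 75094306 to 75094806 was more even between replicates in the pull-downs, with 37.3 and 32.8 scaled reads with sox10, 34.9 and 37.5 with tfap2B and 948 and 290 in the inputs. Of the 5 strongest lower regions for sox10, 4 lay beyond 70 Mb. The exception, at 56178120 to 56178620 and 0.829 kb from a TSS, had 73.3 and 28.1 scaled reads with sox10, 48.3 and 79.1 with tfap2B and 890.0 and 433 in the inputs.

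For tfap2B all 5 strongest lower regions were intronic and lay beyond 70 Mb. At 74433894 to 74434394, for example, tfap2B had 40.3 and 39.6 scaled reads, sox10 had 139 and 67.9, and input had 1429 and 444. At 76101810 to 76102310 tfap2B had 34.0 and 54.1, sox10 74.5 and 67.9, and input 1271 and 340.4. In both places the 4 pull-down values lay below both inputs. Input replicate 1 was the highest library at each of these regions. The gene with the nearest TSS had 0 counts at HH10 at every one of the 9 regions that the naming rule gave as lower for either factor. All but the region at 56178120 to 56178620 lay beyond 70 Mb, where 210 of 293 genes (71.7%) had 0 counts. A link of lower calls to gene level was not tested.

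Between sox10 and tfap2B no Z region was called in the fit of all 6 libraries, where 0% of all regions were called in either direction. An unadjusted limma p under 0.05 was reached in this fit by 43 of the 1112 tested Z regions. This is no more than the threshold passes without any difference, but the spread in this fit also takes in the 2 inputs. EdgeR called 0. In a fit of the 4 pull-downs alone, 126 of the 1112 had an unadjusted limma p under 0.05. After adjustment in that fit, 25 Z regions (2.25%) were higher in sox10 and 0 lower, where 2.47% of all regions were higher and 0.103% lower. Among autosomal regions 4.67% were higher. The median log2 difference over Z was 0.01, beside 0.05 over all regions.

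These 25 regions had median levels of 205 and 234 scaled reads in sox10, against 19.7 and 29.2 in tfap2B and 0.695 and 0.363 in input. None lay within 1 kb of a TSS, 10 lay at 1 to 20 kb (2.48% of those tested) and 15 over 20 kb (4.53%). Autosomal regions had the same order in this fit, with 0.265%, 6.62% and 13.5% higher in sox10. Their log2 differences between sox10 and tfap2B ranged from 1.93 to 4.38. EdgeR called none of the 25, and none reached the mean level that the naming rule asked for. The region with the largest difference, an intronic one at 35570900 to 35571400 named after its values were seen, had 169 and 145 scaled reads with sox10, 2.68 and 14.6 with tfap2B and 0.695 and 0.363 in the inputs.

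Levels were also compared as log2(scaled reads + 1). Across the 1114 Z regions they correlated between the 2 sox10 libraries with Pearson's r = 0.79. Between the 2 tfap2B libraries r was 0.74 and between the inputs 0.66. Between sox10 and tfap2B libraries r ranged from 0.48 to 0.74 on Z, beside 0.24 to 0.56 over autosomal regions. For tfap2B with input libraries it was 0.14 to 0.53 on Z, beside 0.22 to 0.55 over autosomal regions. For sox10 with input libraries it was -0.11 to 0.30 on Z, beside -0.24 to -0.07. These are descriptions across regions, which share the libraries and their depth.

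The highest pull-down levels on Z were concentrated in a short stretch. The region with the highest mean of the 4 pull-downs lay at 27268691 to 27269191, in an intron and 5.58 kb from a TSS. It had 768 and 580 scaled reads with sox10, 496 and 604 with tfap2B and 250.1 and 495 in the inputs. Input was high here too, input replicate 2 lay just below tfap2B replicate 1, and the region was called for neither factor (limma adjusted p 0.133 for sox10 and 0.308 for tfap2B). The second highest, an intergenic region at 27313776 to 27314276, had 452 and 449 with sox10, 382 and 431 with tfap2B and 51.4 and 80.2 in the inputs. There the groups did not overlap, and the log2 difference was 2.79 for sox10 (SE 0.43, limma adjusted p 0.0044) and 2.64 for tfap2B (limma adjusted p 0.00782).

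Around them, 18 regions lay from 27142543 to 27314276, a span of 172 kb chosen after the values were seen and given no test. All 18 were among the 50 Z regions with the highest mean of the pull-downs, and 9 were among the top 20. Their median levels were 277 and 311 scaled reads with sox10, 308 and 256 with tfap2B and 46.9 and 132 in the inputs. Among Z regions these medians stood at percentiles 97.8 and 97.9 with sox10, 95.8 and 96.9 with tfap2B and 34.1 and 39.8 in the inputs. Both factors were high there, and the stretch was chosen after these levels were seen. Its input medians lay below those of all Z regions, at 84.1 and 175, but nearer to those of Z up to 70 Mb, at 59.1 and 142. Its single regions ranged from 18.5 to 495 scaled reads in input replicate 2.

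In this stretch 12 of 18 regions were called higher for sox10 and 9 for tfap2B, where 18.4% and 10.8% of all regions were, and 0 were lower. With only 1 factor and input in the fit, the counts were 6 and 3, where 12% and 4.87% of all regions were called higher. As the stretch was chosen with its high pull-down levels known, its share of higher calls is no support. All 18 had positive log2 differences, from 0.92 to 3.14 for sox10 and from 0.31 to 2.93 for tfap2B. EdgeR called 13 and 12. Without sox10 replicate 1 the sox10 count was 2, without sox10 replicate 2 it was 0, and the tfap2B count was 0 without either tfap2B library and 3 without either sox10 library. For sox10 against input, leaving out a tfap2B library also lowered the count. Leaving out input replicate 2 raised the counts of both factors, as it did over all regions. Leaving out input replicate 1 lowered the sox10 count and left the tfap2B count unchanged, although the higher calls over all regions rose. Leaving out any pull-down library also cut the higher calls over all regions, so this loss is not particular to the stretch. Between sox10 and tfap2B none of the 18 was called in the fit of the 4 pull-downs, with log2 differences from -0.23 to 0.68. From 27238085 to 27269191 lay 11 of them at near regular steps: 9 of the 10 distances between neighbouring starts were 2.60 to 3.01 kb, and the other was 5.75 kb. The stretch held the TSSs of 18 annotated genes, of which 17 had 0 counts at HH10 and the other 1 count.

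**Figure D4:**
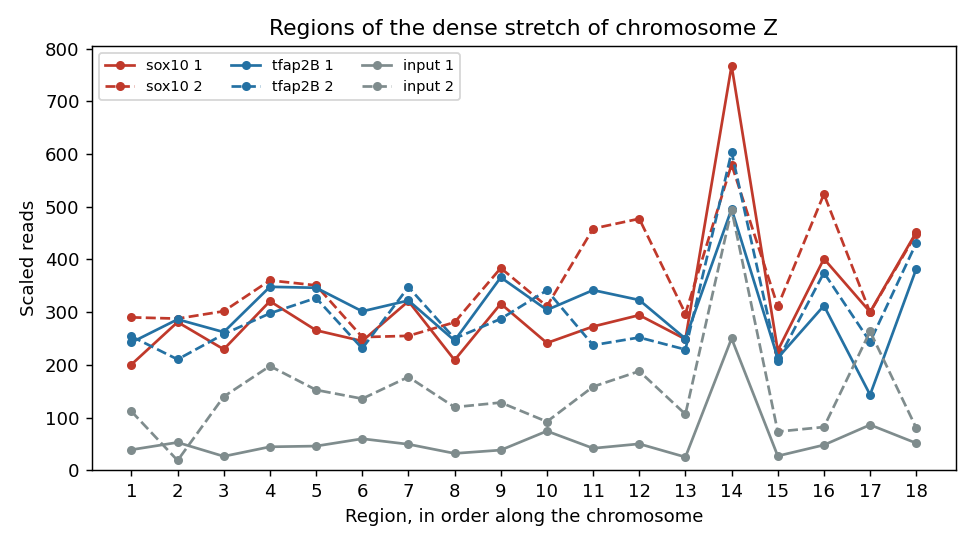
Scaled reads (y axis) of the 18 regions of the dense stretch, in order along chromosome Z (x axis), in each of the 6 libraries joined by lines. The pull-downs lie above the inputs at nearly all positions, and at position 14, the highest region of Z, all libraries peak together.

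On chromosome W the table placed 3 regions, all intronic. At 690556 to 691056 sox10 had 187 and 267 scaled reads, tfap2B 175 and 152, and input 27.1 and 9.80. This region was called higher for both factors, with log2 differences of 3.69 for sox10 (SE 0.69, limma adjusted p 0.00795) and 3.24 for tfap2B (limma adjusted p 0.0143). With only tfap2B and input in the limma fit the adjusted p was 0.0724, so the tfap2B call was lost, while the sox10 call was kept in the matching fit at 0.0316. The other regions, at 3030610 to 3031110 and 3108885 to 3109385, were called for neither. The first had 85.3 and 95.9 with sox10, 28.6 and 133 with tfap2B and 40.3 and 9.44 in the inputs, so the tfap2B and input libraries overlapped.

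At HH10 fewer genes of chromosome Z than of the autosomes were detected. In the RNA library of 28777461 counts, 594 of 1233 Z genes had at least 10 counts (48.2%), against 11743 of 17734 autosomal genes (66.2%). No count was listed for 576 Z genes (46.7%), against 28.3% of autosomal genes. Z genes took 4.67% of all counts (95% Wilson interval 4.66 to 4.68%, counting error only). In a bulk library, fewer cells that express a gene and less RNA per cell cannot be told apart, and with 1 library these values have no replicate check.

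Among genes with at least 10 counts, levels on Z were close to those on autosomes. The median was 13.1 CPM (counts scaled to a common library total) per kb of exon for Z genes and 14.2 for autosomal genes. For the 17 W genes at that level it was 1.28. Of the 141 W genes 39 had at least 1 count, and together they held 3873 counts, 0.0135% of the library (95% Wilson interval 0.0130 to 0.0139%).

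**Figure D5:**
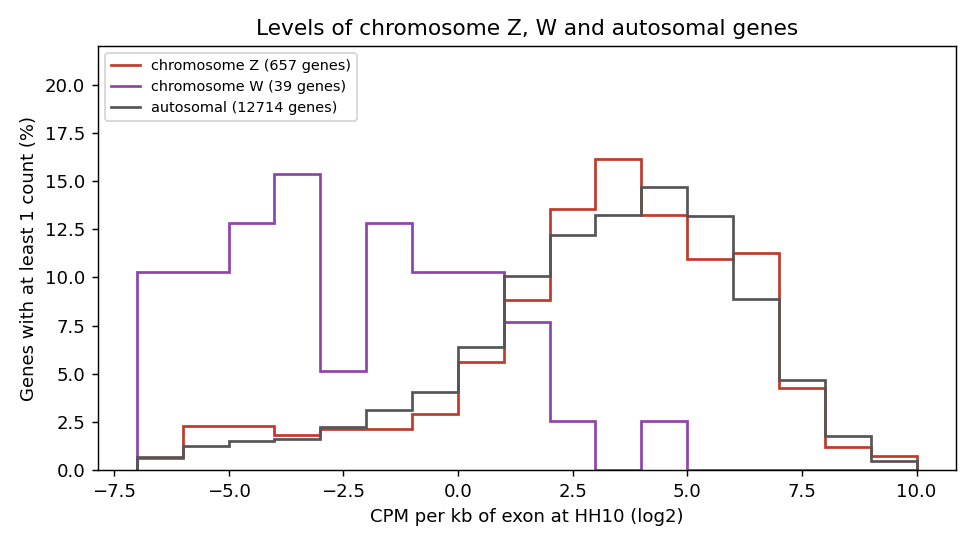
Distribution of gene levels at HH10, as log2 CPM per kb of exon (x axis) against the percentage of genes with at least 1 count (y axis), for 657 chromosome Z, 39 chromosome W and 12714 autosomal genes; the outermost bins also hold all genes beyond them. The Z and autosomal curves run close together, and the W curve lies to the left.

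The end stretch of Z differed from the rest in its genes too. Beyond 70 Mb, 61 of 293 genes (20.8%) had at least 10 counts, against 533 of 940 (56.7%) in the rest of Z. From 75 to 80 Mb, where the regions were densest, 8 of 128 genes (6.25%) had that many. The median exon length was 801 bases beyond 70 Mb and 502 from 75 to 80 Mb, against 1433 in the rest of Z. A cut on counts is not adjusted for length, and the part of length was not tested. Among genes with at least 10 counts the median was 18.3 CPM per kb beyond 70 Mb and 12.7 in the rest.

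Genes with at least 10 counts more often had a region within 1 kb of their start. On Z 285 of 594 such genes had one (48.0%), against 91 of the 639 genes with 0 to 9 counts (14.2%). Autosomal genes gave nearly equal shares, 46.8% and 13.8%. Beyond 70 Mb it was 37 of 61 genes (60.7%) and 16 of 232 (6.90%). On W no gene had a region within 1 kb. The RNA came from HH10 and the chromatin from HH18, so stage and reporter differ between these measurements.

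Regions within 1 kb of a Z gene with at least 10 counts had medians of 120.2 and 103 scaled reads with sox10, 168 and 131 with tfap2B and 97.6 and 212 in the inputs. Those at Z genes with 0 to 9 counts had 100.3 and 90.1 with sox10, 114 and 97.9 with tfap2B and 102 and 234 in the inputs. The pull-down medians were thus higher at genes with at least 10 counts and the input medians lower, a description over regions with no test. On autosomes the pull-downs had the same order, but the inputs the reverse, at 141 and 266 against 123 and 220. On Z up to 70 Mb the inputs had 93.8 and 209 at genes with at least 10 counts, against 90.7 and 230. Beyond 70 Mb they had 117 and 224, against 382 and 247 over 16 regions.

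The highest level per kb on Z was that of ENSGALG00000015704, on the minus strand at 66519578 to 66525077, with 657 CPM (95% Poisson interval 648 to 667) and 859 per kb. A region lay 0.09 kb from its TSS, at 66524737 to 66525237, with 92.5 and 95.9 scaled reads with sox10, 215 and 194 with tfap2B and 86.8 and 383 in the inputs. The tfap2B values lay between both inputs, and the region had no pull-down above both inputs. ENSGALG00000004518, at 22436006 to 22451930, had 1051 CPM and 718 per kb, with a region 0.373 kb from its TSS. On W, ENSGALG00000040086, at 3066295 to 3085742, had 60.1 CPM and held 44.7% of all W counts. ENSGALG00000035118 followed with 6.64 CPM. The sources do not say how reads shared between Z and W copies of a gene were counted, and the W values are uncertain where such copies exist.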

How the data were processed

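RNA from 1 HH10 library and chromatin from 6 HH18 libraries were analysed, grouped by their titles. Per the submitters' processing notes, the genome was galGal5. Those notes list, without roles, DiffBind, DESeq2, Bowtie, featureCounts, Subread 1.4.5 and STAR 2.4.2a. Region calling, the treatment of reads matching several places and the strand setting are not given in the sources used here. Chromatin values as deposited are a signal, whole reads times 1 constant per library: 100.0% of values were whole multiples within 0.01 read, with 1 read worth 0.363 to 2.34. They are named raw counts by the authors, but were treated as scaled reads. Gene values are unnormalized counts for each Ensembl gene, per the file headers. The HH10 column is present 2 times, identically, and entered 1 time. The 21 columns that belong to none of these samples were left out. Coordinates are printed as deposited. Whether starts count from 0 or 1 is not stated.

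The test was limma 3.58.1 (limma-trend) on log2(scaled reads + 1), fitted to the 25281 regions that passed filterByExpr of edgeR 4.0.16, with all 6 libraries, 3 residual degrees of freedom and Benjamini-Hochberg adjusted p under 0.05. Log2 differences understate the change of low regions. Fitting was tested on simulated data in which all regions shared a fixed, assumed spread. That spread was not taken from these libraries, so the run checked the fitting and not the calls. Alternatives were total reads, TMM factors, a pseudocount of 10, no filter, edgeR's quasi-likelihood test on recovered reads, only the 2 groups compared, a replicate block and leaving out each library. Same-numbered libraries of sox10 and input deviated together with a correlation of -0.03, those of tfap2B and input with -0.27, and those of sox10 and tfap2B with 0.05, so the numbers were not taken as pairs. Named regions were, per comparison and direction, the 5 called Z regions with the largest log2 difference, no overlap between groups and a mean at or above the median of placed regions. The 5 Z regions with the highest mean of the pull-downs, and the highest in each TSS class, were added. Named genes were the 2 Z and 2 W genes highest per kb. The regions, classes and rules were chosen with earlier results of these data known.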

Additional observations from a re-analysis of the deposited data

How the results depend on the processing

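For sox10 against input, the 236 lower calls on chromosome Z became 83 with total reads per library, 122 by edgeR and 54 without the regions beyond 70 Mb, an alternative chosen after seeing the data. For tfap2B against input, the 88 higher calls became 135 with total reads and 44 with only those groups in the fit. The 214 lower calls became 84 with total reads, 121 by edgeR and 32 without the regions beyond 70 Mb. Over all regions tested, lower calls for sox10 went from 5632 to 2443 with total reads and to 2900 by edgeR. For tfap2B they went from 4401 to 2141 and 2404, and higher calls went from 2721 to 4665 with total reads. Between sox10 and tfap2B the 0 higher calls on Z became 25 with only those groups. Leaving out each library in turn gave 18 to 246 higher and 0 to 419 lower calls for sox10 against input, and 0 to 251 and 0 to 317 for tfap2B against input. A lone library left in a group was assumed to vary like the others. With the replicate number as a block, the counts were 106 higher and 181 lower for sox10, 61 and 167 for tfap2B, and 0 and 0 between the factors. Over all 25281 regions tested this block gave 3668 and 4310 for sox10 and 1982 and 3307 for tfap2B. With the input numbers crossed, a block chosen after seeing the data, the Z counts for tfap2B were 100 and 209. Over all regions they were 3544 and 4427. The log2 difference of the Z to autosome ratio reversed to 0.16 for sox10 and 0.19 for tfap2B against input, and to -0.028 between sox10 and tfap2B, with only regions within 1 kb of a TSS. Without the regions beyond 70 Mb it reversed to 0.39 and 0.35. The ratio of the median CPM of Z to autosomal genes was 0.0217 over all genes and 1.06 over genes with at least 10 counts, where fewer genes enter. Without the genes beyond 70 Mb, an alternative chosen after seeing the data, it was 0.391. Apart from that ratio, where the restriction itself removes the genes at 0, the cause was not tested. The 2 libraries per group and their depth limit all calls.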

Other observations

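A further 230 regions lay on 159 unplaced sequences labelled Z and 49 on 17 unplaced sequences labelled W, which have no position on the chromosomes and belonged to none of the Z, W and autosomal sets above. They were part of the fit and of the shares given over all regions, as were the regions on other unplaced sequences. The Z-labelled ones had medians of 58.9 and 49.1 scaled reads with sox10, 40.3 and 47.9 with tfap2B and 86.8 and 111 in the inputs. The W-labelled ones had 58.9 and 91.2 with sox10, 100.2 and 72.9 with tfap2B and 84.1 and 124 in the inputs. In the Z-labelled set all 4 pull-down medians lay below both inputs.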
